A study of Mus musculus with 2 samples.

Results

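The 7 genes described here encode Mas-related G protein-coupled receptors: Mrgprd, Mrgpra3, Mrgprb4, Mrgprb5, Mrgprx1, Mrgpre and Mrgprf. They were found by symbol among the 32285 gene identifiers of both libraries, and 13 further genes of the family were looked up beside them. The samples were dissociated dorsal root ganglia of mice at postnatal day 4, pooled over all axial levels and profiled by droplet single-cell RNA sequencing from the 3′ ends of transcripts. There was 1 library from cKO mice (Dhh CRE+, Ptges3 flox/flox) and 1 from flox mice (Ptges3 flox/flox, no Cre in the label). Both genotypes therefore carried floxed Ptges3, which encodes a co-chaperone of the heat shock protein 90 complex. The Dhh promoter drives Cre in the Schwann cell lineage, so most of the receptor transcripts were measured in cells outside the lineage it is used to target. How many mice went into each library is not stated in the labels.

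Mas-related receptors sit on the endings of small unmyelinated sensory neurons, couple mainly to Gq and Gi proteins, and respond to itch-inducing compounds, peptides and beta-alanine. In mouse ganglia they divide nociceptors and itch neurons into groups, and their transcription depends on the factor Runx1. Mrgprd is the beta-alanine receptor of non-peptidergic polymodal nociceptors. Mrgpra3 is the chloroquine receptor of an itch neuron, and Mrgprx1 is an itch receptor for adrenal medulla peptides. Mrgprb4 marks unmyelinated fibres that respond to stroking of hairy skin, whereas Mrgpre and Mrgprf are orphan receptors.

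All 7 genes lay on chromosome 7 of GRCm38, in GENCODE vM21. Mrgpra3 (ENSMUSG00000078698) covered chr7:47588950-47601372 on the minus strand. It was followed along the chromosome by Mrgprx1 (ENSMUSG00000070552, chr7:48020971-48027597), Mrgprb5 (ENSMUSG00000070551, chr7:48167983-48169019) and Mrgprb4 (ENSMUSG00000070550, chr7:48198070-48199288), all on the minus strand. Mrgpre (ENSMUSG00000048965, chr7:143778363-143784500, minus), Mrgprf (ENSMUSG00000031070, chr7:145300828-145309557, plus) and Mrgprd (ENSMUSG00000051207, chr7:145314835-145324086, plus) formed a distant group. Mrgprd, Mrgprb4, Mrgprb5, Mrgprx1 and Mrgpre had 1 annotated coding exon each, Mrgpra3 had 2 and Mrgprf had 4 over its 2 transcripts. None of the 7 shared a run of 90 bases near its 3′ end with a transcript of another gene, so reads were not split between near-identical copies. Mrgpre overlapped the small RNA gene Gm22064, and strand-specific counting is not stated in the sources used here.

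Promoter entries existed for 5 of the 7 genes in RefSeq (GRCm38.p6), and those of 4 are shown because they stand for the main contrast in these data: the abundant Mrgprd and Mrgprx1, which were often found in the same neurons, and the near-silent neighbours Mrgprb4 and Mrgprb5. The Mrgprd sequence (chr7:145314585-145314834, plus) and the Mrgprx1 sequence (chr7:48027598-48027847, minus) are the 250 bases before the start site. The Mrgprb4 (chr7:48199289-48199428, minus) and Mrgprb5 (chr7:48169096-48169235, minus) sequences are the outer 140 bases of the same window, which lie outside the annotated genes, and capitals mark the bases that differ between them.
Mrgprd: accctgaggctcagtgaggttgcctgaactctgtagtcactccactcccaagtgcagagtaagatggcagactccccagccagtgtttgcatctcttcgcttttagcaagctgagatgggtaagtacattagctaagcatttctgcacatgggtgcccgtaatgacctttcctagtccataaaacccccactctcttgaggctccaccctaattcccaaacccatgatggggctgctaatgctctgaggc
Mrgprx1: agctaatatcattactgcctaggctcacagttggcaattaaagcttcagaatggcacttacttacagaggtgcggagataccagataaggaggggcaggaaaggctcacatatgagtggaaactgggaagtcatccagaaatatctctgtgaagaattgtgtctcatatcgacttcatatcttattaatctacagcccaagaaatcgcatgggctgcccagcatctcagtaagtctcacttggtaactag
Mrgprb4: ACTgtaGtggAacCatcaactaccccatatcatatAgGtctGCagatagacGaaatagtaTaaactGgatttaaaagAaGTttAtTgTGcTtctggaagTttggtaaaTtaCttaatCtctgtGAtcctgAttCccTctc
Mrgprb5: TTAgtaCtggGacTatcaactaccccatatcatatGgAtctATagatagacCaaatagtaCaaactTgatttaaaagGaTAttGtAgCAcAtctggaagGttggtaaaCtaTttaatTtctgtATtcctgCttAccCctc
Mrgprb4 and Mrgprb5 had 110 of 140 bases in common (78.6%) without gaps, against 57 of 250 (22.8%) for Mrgprd and Mrgprx1. The RUNX core (TGTGGT or TGCGGT, searched on both strands) occurred in 0 of the 5 members' 250-base windows and in 18.6% of 32851 such windows of all RefSeq entries.

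Neurons were taken as cells in which Snap25, Stmn2, Tubb3 and Prph together made up at least 0.4% of the unique molecular identifiers (UMIs, each standing for 1 captured transcript). This gave 3130 neurons among 7866 cells of the cKO library (39.8%) and 1574 among 8107 cells of the flox library (19.4%). Few cells lay near the gate: 45 cKO and 19 flox neurons were between 0.4% and 0.5%, and 41 cKO and 22 flox cells between 0.3% and 0.4%. A sensory neuron marker (Isl1, Pou4f1 or Avil) was found in 91.3% of cKO and 97.8% of flox neurons. The neurons differed in depth, with a median of 9043 UMIs in the cKO library and 46626 in the flox library. The libraries shared 23 barcodes, which touched 11 cKO neurons and 1 flox neuron, and without them the log2 ratio of cKO over flox was -0.22 for Mrgprd and -0.69 for Mrgpra3, as with them. Ptges3 itself stood at 128 CPM (UMIs of a gene in every 1000000 UMIs) in peripheral glia of the cKO library and 256 CPM in those of the flox library, and at 392 CPM in cKO neurons and 276 CPM in flox neurons. Because each genotype was 1 library, no test between genotypes was possible, and all intervals below are 95% intervals that cover counting error only. In sums over cells, fewer positive neurons and fewer transcripts per neuron cannot be told apart, so shares of positive neurons are given beside the sums.

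Mrgprd was the most abundant of the 7 receptors in both libraries, followed by Mrgpra3, Mrgprx1 and Mrgpre, while Mrgprb4, Mrgprf and Mrgprb5 were at or under 1 CPM. Levels are compared across genes in CPM, which in a library of 3′ ends do not scale with transcript length. Of the 5 receptors with at least 50 UMIs over both libraries, 1 (Mrgpra3) was lower in cKO neurons by the size rule of 0.5 log2 units and 0 were higher. Among all 15056 genes measured in neurons, 4.29% were lower and 9.29% higher by that rule. The median log2 ratio of cKO over flox was -0.04 for the 5 receptors and -0.02 for all genes.

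Mrgprd had 4130 UMIs in cKO neurons and 6376 in flox neurons, or 79.2 CPM (interval 76.8 to 81.6) against 92.1 CPM (89.9 to 94.4). The log2 ratio was -0.22 (-0.28 to -0.16), under the size rule. Without thinning, a Mrgprd UMI was found in 917 of 3130 cKO neurons (29.3%) and in 696 of 1574 flox neurons (44.2%). Positive cKO neurons held a median of 2 UMIs and positive flox neurons a median of 9. The unthinned share follows depth, and is set beside shares at equal depth further on.

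Mrgpra3 had 1995 UMIs in cKO neurons and 4284 in flox neurons, or 38.3 CPM (36.6 to 40.0) against 61.9 CPM (60.0 to 63.8). Its log2 ratio of -0.69 (-0.77 to -0.62) passed the size rule. The share of neurons with a Mrgpra3 UMI was close in the libraries, at 12.9% of cKO neurons (403 cells) and 12.1% of flox neurons (191 cells). A few neurons carried much of the signal: the 10 with most Mrgpra3 UMIs held 23.9% of the cKO total and 26.8% of the flox total, and the highest single neuron had 71 UMIs in cKO and 136 in flox. Without those 10 neurons of each library the log2 ratio was -0.64. It was -0.03 when each neuron counted equally through its own CPM, so the lower sum did not hold under that measure.

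Mrgprx1 had 1159 UMIs in cKO neurons and 1571 in flox neurons, or 22.2 CPM (21.0 to 23.5) against 22.7 CPM (21.6 to 23.8). Its signal was spread thinly over many cells, with 684 positive cKO neurons (21.9%) and 661 positive flox neurons (42.0%), and no neuron held more than 8 UMIs in cKO or 10 in flox. The log2 ratio was -0.03 (-0.14 to 0.08). Mrgpra3 and Mrgprx1, both itch receptors, therefore had unlike distributions: few neurons with many molecules for Mrgpra3, and many neurons with few for Mrgprx1.

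Mrgprb4 had 47 UMIs in 30 cKO neurons and 50 UMIs in 29 flox neurons, 0.90 CPM (0.66 to 1.20) against 0.72 CPM (0.54 to 0.95). Its log2 ratio of 0.32 had an interval of -0.29 to 0.92. Mrgprb5 had 4 UMIs in 4 cKO neurons and 4 UMIs in 4 flox neurons. At this depth a difference in either gene was not detectable, and both genes were near 0 in neurons.

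Mrgpre had 261 UMIs in cKO neurons and 355 in flox neurons, or 5.0 CPM (4.42 to 5.65) against 5.13 CPM (4.61 to 5.69), with a log2 ratio of -0.04 (-0.27 to 0.20). It was found in 7.28% of cKO and 16.8% of flox neurons, mostly as a single UMI. Mrgprf had 7 UMIs in cKO neurons and 5 in flox neurons, each in a separate cell. In the order of the levels, neighbours were apart beyond their counting intervals from Mrgprd down to Mrgprf in each library, whereas Mrgprf and Mrgprb5 were not apart.

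**Figure D1:**
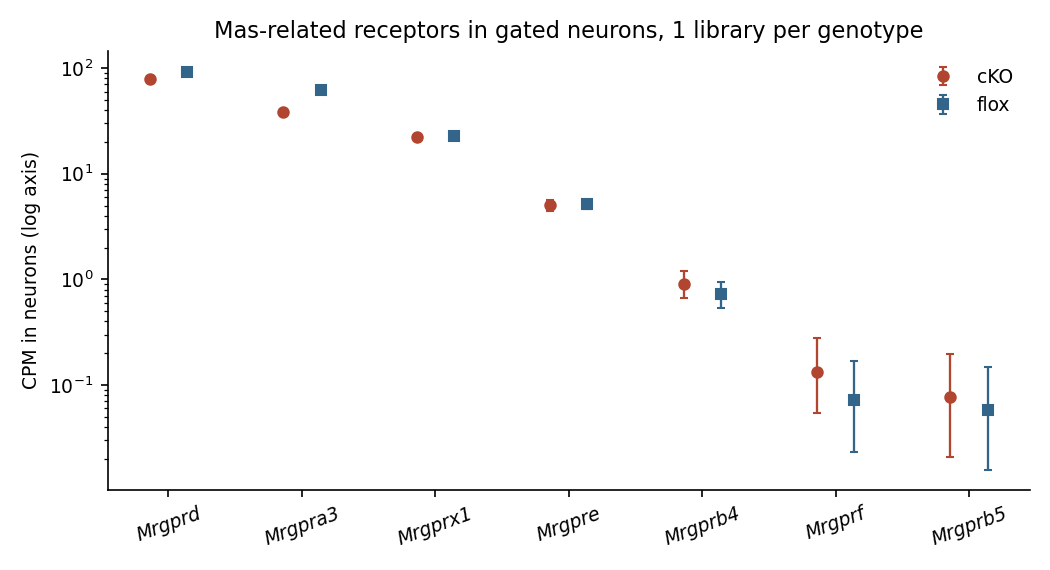
Level in CPM in gated neurons (vertical log axis) for each receptor, in 1 cKO library (circles) and 1 flox library (squares), with bars for exact Poisson 95% intervals. The receptors run from Mrgprd at 79.2 CPM in cKO and 92.1 CPM in flox down to Mrgprb5 with 4 UMIs in each library, and Mrgpra3 has the widest gap of the 5 measured receptors.

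Of the 13 other genes of the family, 3 had at least 50 UMIs, 5 had between 1 and 49, and 5 had none in neurons of either library. Mrgpra1 had 1161 UMIs in cKO neurons and 1824 in flox neurons, 22.3 CPM against 26.3 CPM, with a log2 ratio of -0.24 (-0.35 to -0.14). Mrgpra2a had 43 UMIs in cKO neurons and 99 in flox neurons (log2 ratio -0.80, -1.35 to -0.26). Mrgpra2b had 113 UMIs in cKO neurons and 266 in flox neurons (log2 ratio -0.83, -1.16 to -0.50). These last genes share 55.2% and 56.3% of the 90-base windows at their 3′ ends with each other, so the split of reads between them is uncertain. By the size rule Mrgpra2a and Mrgpra2b, which are not separate counts, were lower in cKO neurons, and 0 of the 3 were higher, where 4.29% of all genes were lower and 9.29% higher.

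The level of Mrgprd differed between bins of UMIs per neuron, and differently in each library, and the cause was not tested. In neurons with at least 40000 UMIs, Mrgprd stood at 113 CPM in 366 cKO neurons and 93.6 CPM in 928 flox neurons (log2 ratio 0.27, 0.20 to 0.34). In neurons of 20000 to 40000 UMIs it was 71.2 CPM in 593 cKO neurons and 52.5 CPM in 283 flox neurons (log2 ratio 0.44). The direction turned below that depth: in neurons of 10000 to 20000 UMIs Mrgprd was 40.4 CPM in 528 cKO neurons and 204 CPM in 130 flox neurons (log2 ratio -2.33, -2.55 to -2.11).

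The shallower bins kept that direction. Mrgprd was 46.7 CPM in cKO and 148 CPM in flox neurons of 5000 to 10000 UMIs, and 44.1 CPM in cKO and 121 CPM in flox neurons of 1000 to 5000 UMIs. The flox bins were small there, with 90 and 143 neurons, beside 663 and 980 in the cKO library. Neurons under 20000 UMIs held 28.7% of all neuron UMIs in the cKO library and 4.27% in the flox library, so the summed level also depends on this mix.

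Glial markers and mitochondrial content also changed with depth. Sox10, Erbb3, Cdh19 and Foxd3, which are part of the glial marker list and do not stand for all of it, were detected in each bin, 4 of 4. They summed to 73.0 CPM in cKO and 85.8 CPM in flox neurons of 5000 to 10000 UMIs, and to 53.5 CPM in cKO and 50.9 CPM in flox neurons of 10000 to 20000 UMIs. In neurons of at least 40000 UMIs they summed to 17.7 CPM in cKO and 15.5 CPM in flox. Median mitochondrial content in neurons of 10000 to 20000 UMIs was 0.77% in cKO and 2.58% in flox. The part of these measures in the receptor levels was not tested.

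Mrgpra3 ran another way over depth. In neurons of 1000 to 5000 UMIs it was found in 143 of 980 cKO neurons (14.6%, 12.4 to 16.96) and in 5 of 143 flox neurons (3.50%, 1.14 to 7.97), at 90.6 CPM against 49.7 CPM. Among neurons of 10000 to 20000 UMIs, 11.6% of cKO and 29.2% of flox neurons were positive, at 28.3 CPM against 95.6 CPM. In neurons of at least 40000 UMIs the shares were 13.1% in cKO and 11.5% in flox, while the levels were 41.4 CPM in cKO and 65.2 CPM in flox (log2 ratio -0.66, -0.77 to -0.55). In the deepest neurons, therefore, the intervals of the shares overlapped (9.83 to 17.01 in cKO, 9.55 to 13.8 in flox) while the summed level was lower in cKO.

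Among cKO neurons of 1000 to 5000 UMIs, Gfra1, a co-receptor for the glial factor GDNF, stood at 76.7 CPM (52.4 to 108) in the 143 neurons with Mrgpra3 and 24.4 CPM (18.4 to 31.9) in the 837 without it. Calca, which encodes the peptide CGRP, went the other way, at 1124 CPM in the neurons with Mrgpra3 and 1954 CPM in those without it.

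Mrgprx1 and Mrgpre were compared at a given depth in the same way. In neurons of at least 40000 UMIs a Mrgprx1 UMI was found in 54.4% of cKO and 56.4% of flox neurons, and the log2 ratio of the levels was 0.00 (-0.16 to 0.15). Mrgpre was found there in 20.2% of cKO and 20.2% of flox neurons, with a log2 ratio of 0.02 (-0.33 to 0.37). In neurons of 10000 to 20000 UMIs the log2 ratio of Mrgprx1 was -0.51 (-0.98 to -0.01) and that of Mrgpre was -0.84 (-1.70 to 0.08). In neurons of 20000 to 40000 UMIs the log2 ratios were 0.24 (-0.04 to 0.52) for Mrgprx1 and -0.25 (-0.73 to 0.25) for Mrgpre.

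**Figure D2:**
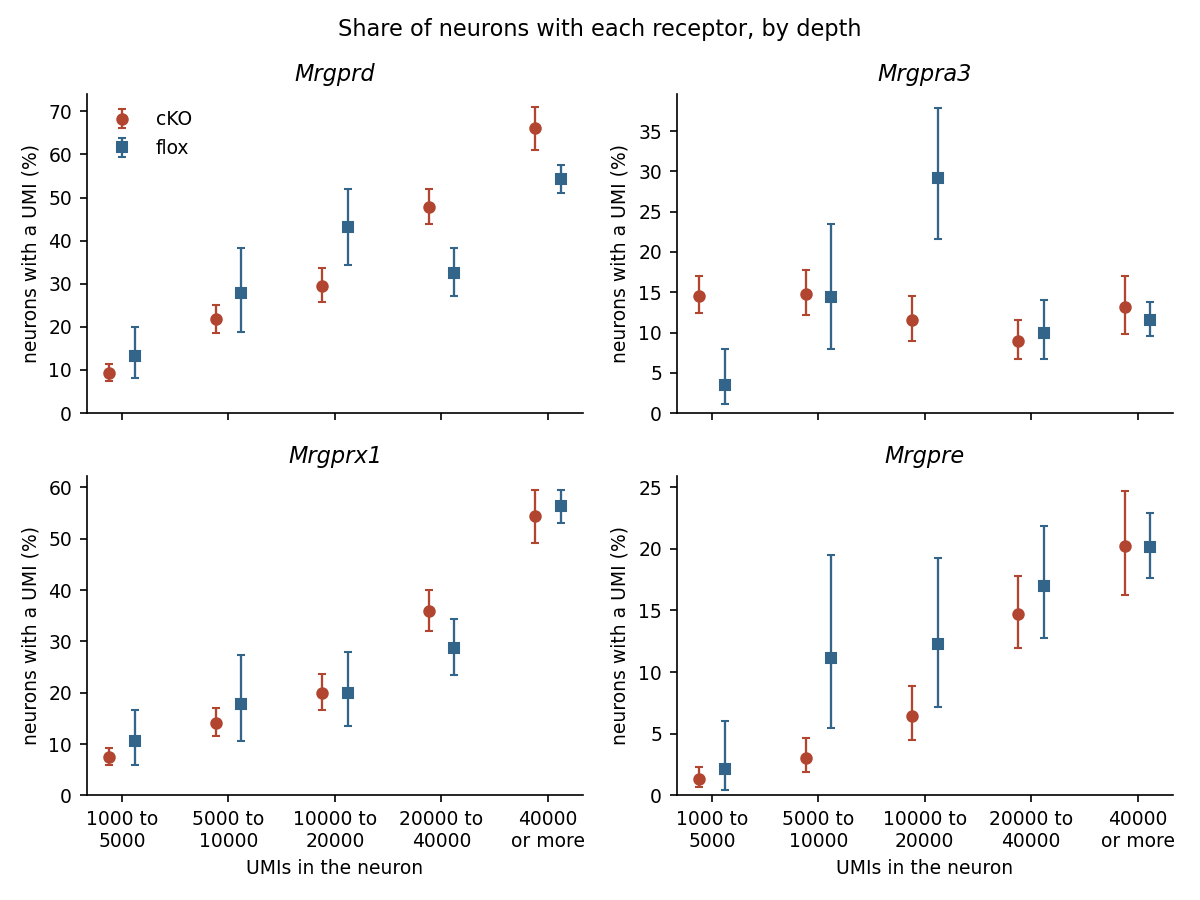
Percent of neurons with at least 1 UMI of Mrgprd, Mrgpra3, Mrgprx1 and Mrgpre (vertical axes) in 5 bins of UMIs per neuron (horizontal axis), in cKO (circles) and flox (squares), with bars for exact Clopper-Pearson 95% intervals. Mrgprd is found in 66.1% of cKO and 54.3% of flox neurons of at least 40000 UMIs, whereas the share of Mrgpra3 shows no steady climb with depth and reaches 29.2% in flox neurons of 10000 to 20000 UMIs.

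To compare shares at equal depth, each neuron was reduced to a fixed number of UMIs, averaged over all random draws and rounded to whole neurons. At 5000 UMIs, which left out 980 cKO and 143 flox neurons, Mrgprd was found in 21.4% of 2150 cKO neurons (19.7 to 23.2) and 27.1% of 1431 flox neurons (24.8 to 29.5). At 20000 UMIs it was found in 50.3% of 959 cKO neurons (47.0 to 53.5) and 45.0% of 1211 flox neurons (42.2 to 47.9). The difference, cKO minus flox, was -5.72 percentage points (-8.62 to -2.86) at the lower depth and 5.26 points (1.03 to 9.46) at the higher, where both the neurons admitted and the depth at which they are read differ. The neurons of at least 20000 UMIs read at 5000 UMIs had Mrgprd in 27.7% of cKO and 26.8% of flox cells, a difference of 0.90 points (-2.85 to 4.69).

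For Mrgpra3, Mrgprx1 and Mrgpre the interval of the difference held 0 at both depths. At 5000 UMIs Mrgpra3 was found in 8.56% of cKO and 8.46% of flox neurons, Mrgprx1 in 9.63% of cKO and 10.1% of flox neurons, and Mrgpre in 2.42% of cKO and 2.87% of flox neurons. At 20000 UMIs Mrgpra3 was found in 9.18% of cKO and 9.25% of flox neurons, Mrgprx1 in 29.8% of cKO and 29.7% of flox neurons, and Mrgpre in 9.91% of cKO and 8.84% of flox neurons. The difference of Mrgpra3 at 20000 UMIs had an interval of -2.50 to 2.43 points, and that of Mrgprx1 one of -3.76 to 3.98 points.

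Any of the 7 receptors was found in 68.1% of cKO and 63.1% of flox neurons at 20000 UMIs, against 35.4% of cKO and 40.5% of flox neurons at 5000 UMIs. Several receptors were found in 41.4% of receptor-positive cKO neurons and 42.0% of receptor-positive flox neurons at 20000 UMIs. As a background for free RNA in the droplets, peripheral glia at 5000 UMIs had Mrgprd in 0.60% of 500 cKO and 0.56% of 1962 flox cells. Without thinning, Mrgpra3 was found in 5 of 2185 cKO glia (0.23%) and 10 of 3207 flox glia (0.31%), whose median depth was 3520 UMIs in cKO and 5897 UMIs in flox.

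Pairs of receptors were described at 20000 UMIs, where more of the transcripts of a neuron were seen. Mrgprd was more frequent in neurons with Mrgprx1 than in neurons without it, in both libraries. Among Mrgprx1-positive neurons, 214 of 286 in cKO (74.8%, 69.4 to 79.7) and 248 of 360 in flox (68.9%, 63.8 to 73.6) also had Mrgprd. Among Mrgprx1-negative neurons Mrgprd was found in 39.8% (36.1 to 43.6) in cKO and 34.9% (31.7 to 38.2) in flox. At 5000 UMIs the shares were 34.8% in Mrgprx1-positive and 20.0% in Mrgprx1-negative cKO neurons, and 43.8% in Mrgprx1-positive and 25.3% in Mrgprx1-negative flox neurons.

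At 20000 UMIs Mrgpra3 overlapped with Mrgprx1 and with Mrgpra1, a further receptor of the family. Mrgprx1 was found in 42.0% of Mrgpra3-positive (31.6 to 53.0) and 28.6% of Mrgpra3-negative cKO neurons (25.6 to 31.7), and in 47.3% of Mrgpra3-positive (37.8 to 57.0) and 27.9% of Mrgpra3-negative flox neurons (25.3 to 30.7). Mrgpra1 was found in 60.2% of Mrgpra3-positive and 21.9% of Mrgpra3-negative cKO neurons, and in 61.6% of Mrgpra3-positive and 27.1% of Mrgpra3-negative flox neurons. In each library these intervals were apart for Mrgpra1. At 5000 UMIs the excess of Mrgprx1 in Mrgpra3-positive neurons was 9.08 points in cKO (4.03 to 15.4) and 5.26 points in flox (-0.27 to 12.8), and the flox interval held 0.

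Mrgprd was found about as often with as without Mrgpra3 at this depth: in 47.7% of Mrgpra3-positive (37.0 to 58.6) and 50.5% of Mrgpra3-negative cKO neurons (47.1 to 53.9), and in 48.2% of Mrgpra3-positive (38.7 to 57.9) and 44.7% of Mrgpra3-negative flox neurons (41.7 to 47.7). The share of Mrgpra3 was also read by the level of Mrgprd. Mrgpra3 was found in 3.97% of 126 cKO neurons with at least 5 Mrgprd UMIs (1.30 to 9.02), against 9.64% of 477 cKO neurons with none (7.15 to 12.7). It was found in 3.35% of 179 flox neurons with at least 5 Mrgprd UMIs (1.24 to 7.15), against 8.71% of 666 flox neurons with none (6.68 to 11.1). In each library these intervals overlapped. Neurons with exactly 1 Mrgprd UMI had the highest share, 15.7% of 115 in cKO and 23.1% of 91 in flox. Read the other way, neurons with at least 5 Mrgpra3 UMIs did not lack Mrgprd. It was found in 53.2% of 47 such cKO neurons (38.1 to 67.9) and 52.1% of 73 such flox neurons (40.0 to 63.9).

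The few Mrgprb4-positive neurons lay almost wholly within the Mrgpra3-positive ones. Mrgpra3 was found in 9 of 10 Mrgprb4-positive cKO neurons and 12 of 12 Mrgprb4-positive flox neurons, against 8.32% of Mrgprb4-negative cKO and 8.34% of Mrgprb4-negative flox neurons. Mrgprd was found in 9 of those 10 cKO neurons and 10 of those 12 flox neurons. The exact intervals of the Mrgpra3 shares were wide, 55.5% to 99.7% in cKO and from 73.5% in flox.

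Mrgprd and Mrgprx1 were less frequent in neurons with Mrgpre. Mrgprd was found in 18 of 95 Mrgpre-positive cKO neurons (18.9%, 11.6 to 28.3) and 53.7% of Mrgpre-negative cKO neurons (50.3 to 57.1). It was found in 16 of 107 Mrgpre-positive flox neurons (14.95%, 8.80 to 23.1) and 47.9% of Mrgpre-negative flox neurons (44.9 to 50.9). Mrgprx1 was likewise lower in Mrgpre-positive neurons, at 12.6% against 31.7% of Mrgpre-negative neurons in cKO and 16.8% against 31.0% in flox. Mrgpra3 was found in 7.37% of Mrgpre-positive and 9.38% of Mrgpre-negative cKO neurons, and in 13.1% of Mrgpre-positive and 8.88% of Mrgpre-negative flox neurons, with overlapping intervals in each library.

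**Figure D3:**
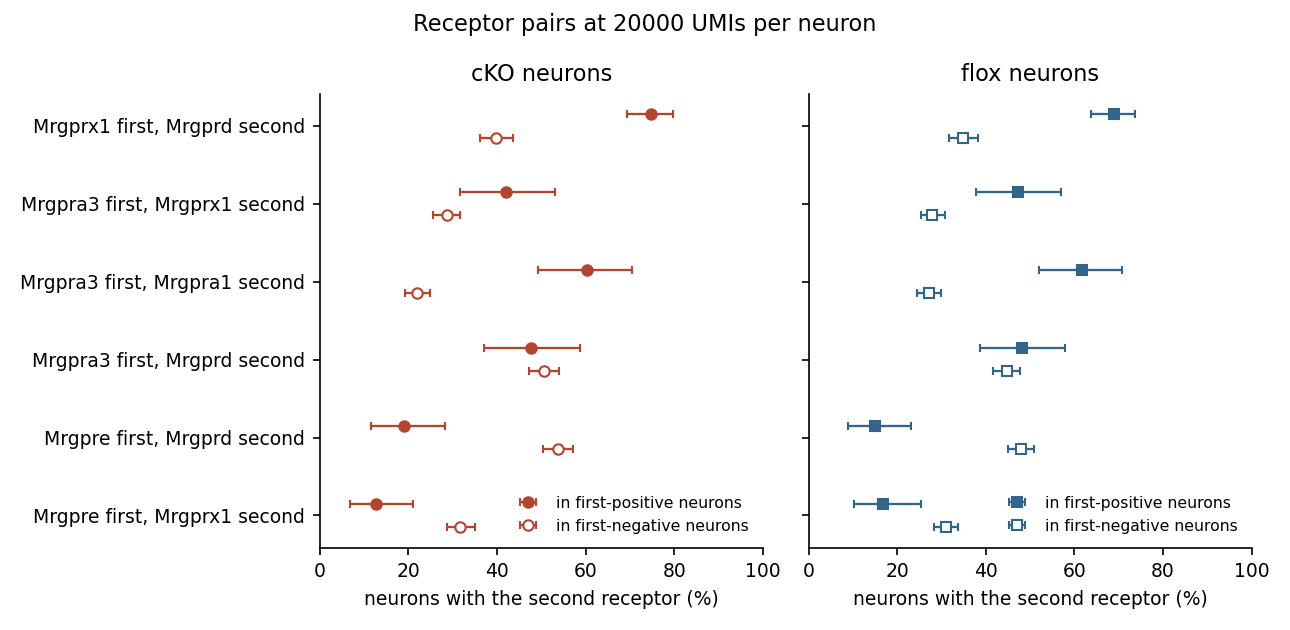
Percent of neurons with the second receptor of a pair (horizontal axis) among neurons with (filled) and without (open) the first, at 20000 UMIs per neuron, in cKO (left) and flox (right), with bars for exact Clopper-Pearson 95% intervals. Mrgprd is more frequent with Mrgprx1 (74.8% in cKO, 68.9% in flox) and less frequent with Mrgpre (18.9% in cKO, 14.95% in flox) than without it.

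The receptors were then placed among neuron groups by single marker genes, again at 20000 UMIs. Mrgprd was frequent with Plxnc1, a semaphorin receptor of non-peptidergic neurons: 70.9% of 581 Plxnc1-positive cKO neurons had it, against 18.5% of Plxnc1-negative ones, and 69.4% of 713 Plxnc1-positive flox neurons, against 10.0% of Plxnc1-negative ones. It was found in 59.2% of cKO and 56.1% of flox neurons with Gfra2, a neurturin co-receptor. It was less frequent in neurons with Tac1, which encodes substance P, at 31.9% in cKO (27.0 to 37.2) and 20.4% in flox (16.4 to 24.9).

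At 5000 UMIs the intervals for Tac1 overlapped, 11.1% in cKO (9.08 to 13.3) and 8.76% in flox (6.03 to 12.2). Neurons with Ntrk3, the neurotrophin-3 receptor of large mechanoreceptive and proprioceptive neurons, had Mrgprd in 63 of 266 cKO cells (23.7%, 18.7 to 29.3) and 29 of 339 flox cells (8.55%, 5.80 to 12.1). Neurons with the cold channel Trpm8 had it in 8 of 34 cKO and 2 of 37 flox cells. At 5000 UMIs the Ntrk3 group had Mrgprd in 8.90% of cKO (5.90 to 12.8) and 4.17% of flox neurons (1.92 to 7.76), and these intervals overlapped.

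Mrgpra3 was more frequent with than without Calca and Gfra1 in both libraries. It was found in 14.1% of Calca-positive (11.4 to 17.2) and 1.82% of Calca-negative cKO neurons (0.73 to 3.71), and in 16.6% of Calca-positive (13.8 to 19.7) and 0.89% of Calca-negative flox neurons (0.29 to 2.05). With Gfra1 the shares were 26.5% in Gfra1-positive and 3.82% in Gfra1-negative cKO neurons, and 29.9% in Gfra1-positive and 2.21% in Gfra1-negative flox neurons. Pvalb, taken as a marker of myelinated neurons, also went with Mrgpra3. The shares with and without Pvalb were 20.2% and 8.05% in cKO, and 15.6% and 8.82% in flox, where the intervals overlapped. At 5000 UMIs they were 8.43% and 8.57% in cKO, and 28.7% and 6.92% in flox. Gfra2-positive neurons had Mrgpra3 in 6.88% of cKO cells (4.92 to 9.33) and 3.55% of flox cells (2.29 to 5.24). Neurons with the natriuretic peptide gene Nppb, a marker of another class of itch neuron, had Mrgpra3 in 1 of 40 cKO and 8 of 68 flox cells. Nppb-negative neurons had it in 9.47% of cKO and 9.10% of flox cells. Both values lay within the wide intervals of the Nppb-positive shares (0.06 to 13.2 in cKO, 5.22 to 21.9 in flox). All 10 cKO and 11 of 12 flox neurons with Mrgprb4 were Gfra1-positive.

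Mrgprx1 matched neither Mrgprd nor Mrgpra3 in all of these groups. It was found in 37.9% of Plxnc1-positive and 17.5% of Plxnc1-negative cKO neurons, and in 39.3% of Plxnc1-positive and 16.1% of Plxnc1-negative flox neurons. Mrgpra3 was also more frequent with than without Plxnc1, at 12.6% against 3.97% in cKO and 13.9% against 2.61% in flox. With and without Gfra1, Mrgprx1 was at 36.3% and 27.8% in cKO and 35.4% and 27.8% in flox, with overlapping intervals. Mrgprd was at 51.8% and 49.8% there in cKO, and 46.8% and 44.4% in flox. Calca did not separate Mrgprx1, with 29.3% of Calca-positive and 30.6% of Calca-negative cKO neurons and 29.3% of Calca-positive and 30.3% of Calca-negative flox neurons. Mrgpre ran the other way, at 7.40% of Plxnc1-positive and 13.8% of Plxnc1-negative cKO neurons, and 6.59% of Plxnc1-positive and 12.0% of Plxnc1-negative flox neurons. In Ntrk3-positive neurons Mrgpre was found in 16.2% of cKO and 12.4% of flox cells.

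**Figure D4:**
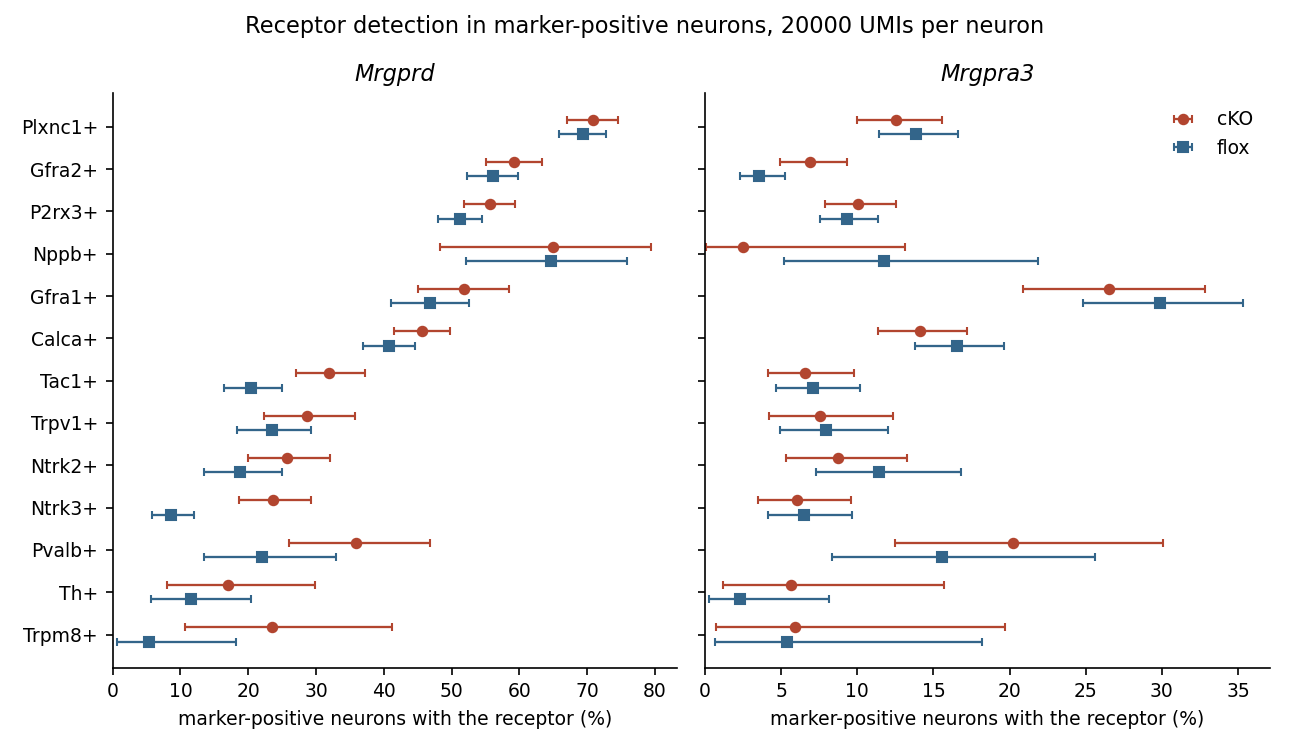
Percent of marker-positive neurons with Mrgprd (left) or Mrgpra3 (right) at 20000 UMIs per neuron (horizontal axes) for 13 single markers, in cKO (circles) and flox (squares), with bars for exact Clopper-Pearson 95% intervals. Mrgprd is highest in Plxnc1-positive neurons (70.9% in cKO, 69.4% in flox) and Mrgpra3 in Gfra1-positive neurons (26.5% in cKO, 29.9% in flox).

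The genes most like each receptor were ranked by how much more often they were found in receptor-positive than in receptor-negative neurons at 5000 UMIs, by the lower of the libraries. For Mrgprd these were A3galt2, a galactosyltransferase gene, the receptor phosphatase gene Ptprt, the actin-bundling gene Lcp1, Ctxn3 and the secreted Wnt antagonist gene Frzb. A3galt2 was found in 30.5% of Mrgprd-positive and 11.6% of Mrgprd-negative cKO neurons, and in 39.8% of Mrgprd-positive and 13.8% of Mrgprd-negative flox neurons. For Mrgpra3 they were Gfra1, the transcription factor gene Etv1, Cmbl, the phosphodiesterase gene Pde1c and the matricellular protein gene Ccn3. Gfra1 was found in 29.3% of Mrgpra3-positive and 7.58% of Mrgpra3-negative cKO neurons, and in 43.4% of Mrgpra3-positive and 7.57% of Mrgpra3-negative flox neurons.

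For Mrgprx1 the likeness was weaker and led by another receptor of the family. The first gene was Mrgprd, at a log2 ratio of 0.80 in the lower library, followed by A3galt2 (0.75), the Gq-class subunit gene Gna14 (0.74), Ms4a3 (0.65) and Mal2 (0.65). The first gene reached 1.39 for Mrgprd and 1.94 for Mrgpra3. Mrgprx1 was often missed at this depth, so the negative group held neurons with its transcript. Neurons of at least 20000 UMIs had it in 9.80% of cKO and 9.91% of flox cells when read at 5000 UMIs. Read at 20000 UMIs the shares were 29.8% and 29.7%. The part of detection in the smaller ratios was not tested. Mrgpre had 41 positive flox neurons at 5000 UMIs, under the 50 needed for the ranking.

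Genes that act with these receptors were taken as 3 lists. The list of coupled signalling held 20 genes, all measured, of which 2 were higher in cKO neurons and 0 lower by the size rule, with a median log2 ratio of -0.11. Those higher were the chloride channel gene Ano1 at 1.1 (34 UMIs in cKO, 21 in flox) and the receptor kinase gene Grk2 at 0.52 (134 CPM in cKO, 93.7 CPM in flox). The inhibitory G protein gene Gnai2, among the lowest, was at -0.25 and did not pass the rule. Gna14, whose Gq-class product stands near the head of the pathway, had 76.6 CPM in cKO and 89.99 CPM in flox (log2 ratio -0.23).

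Of 16 receptors and peptides of itch and non-peptidergic neurons 13 were measured, with 2 higher, 2 lower and a median log2 ratio of -0.28. The serotonin receptor gene Htr1f was at 0.95 (1.78 CPM in cKO, 0.92 CPM in flox) and the protease receptor gene F2rl1 at 0.54. The lysophosphatidic acid receptor gene Lpar3 was at -0.76, with 12.3 CPM in cKO and 20.9 CPM in flox, and the histamine receptor gene Hrh1 at -0.66. P2rx3, the ATP-gated channel of non-peptidergic neurons, was at -0.30 and under the rule.

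Of 16 factors and growth factor receptors upstream of the family, all measured, 0 were higher and 1 was lower, with a median of -0.23. That gene was Gfra3, the artemin co-receptor, at -0.60 (61.1 CPM in cKO, 92.3 CPM in flox). The highest were Runx1 at 0.20 (147 CPM in cKO, 128 CPM in flox) and Ntrk2 at 0.07. All 3 list medians lay below the median of all genes, -0.02, and the shares called in all genes are those given above.

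Mrgprf was the most abundant of the 7 receptors in fibroblasts. Cells were gated by at least 3 markers of 1 class, and fibroblasts (Pdgfra, Dcn, Lum, Col1a1, Col3a1) had Mrgprf at 6.96 CPM (5.02 to 9.41) in cKO and 6.86 CPM (5.32 to 8.72) in flox. The log2 ratio between the libraries was 0.02 (-0.57 to 0.60). A Mrgprf UMI was found in 42 of 1133 cKO fibroblasts (3.71%) and 62 of 1152 flox fibroblasts (5.38%), at median depths of 4639 UMIs and 6559 UMIs. Reduced to 5000 UMIs the shares were 3.89% of 488 cKO and 3.39% of 827 flox fibroblasts.

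Within a library the fibroblast level was 51.9-fold that of neurons in cKO (23.1 to 137) and 95.01-fold in flox (38.8 to 302). Peripheral glia had 15 Mrgprf UMIs in cKO and 13 in flox, 1.73 CPM against 0.60 CPM, so that fibroblasts stood 4.02-fold above glia in cKO (2.18 to 7.80) and 11.5-fold in flox (6.31 to 22.8). The log2 ratio of glia in cKO over flox was 1.54 (0.37 to 2.73), from few UMIs. Mural cells had 1 Mrgprf UMI in 114 cKO cells and 5 in 97 flox cells. From these few UMIs the level was 2.91 CPM in cKO (0.07 to 16.2) and 7.38 CPM in flox (2.40 to 17.2). These wide intervals held the fibroblast levels, so mural cells and fibroblasts were not apart.

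Mrgpre was also found in non-neuronal cells. Fibroblasts had it at 1.66 CPM in cKO and 2.36 CPM in flox, and peripheral glia at 1.85 CPM in cKO and 1.33 CPM in flox. Glia thus stood at 0.37-fold the neuron level in cKO (0.21 to 0.61) and 0.26-fold in flox (0.17 to 0.38). Endothelial cells had Mrgpre in 3 of 131 cKO and 7 of 108 flox cells, at 4.36 CPM and 9.08 CPM. That was 0.87-fold the neuron level in cKO (0.18 to 2.58) and 1.77-fold in flox (0.76 to 3.53), from few UMIs. Mrgprd in glia was at 1.39 CPM in cKO and 1.19 CPM in flox, far below its level in neurons, and Mrgpra3 and Mrgprx1 were each under 1 CPM there. Mrgprb4 had 0 UMIs in 4736 cKO and 6533 flox non-neuronal cells.

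**Figure D5:**
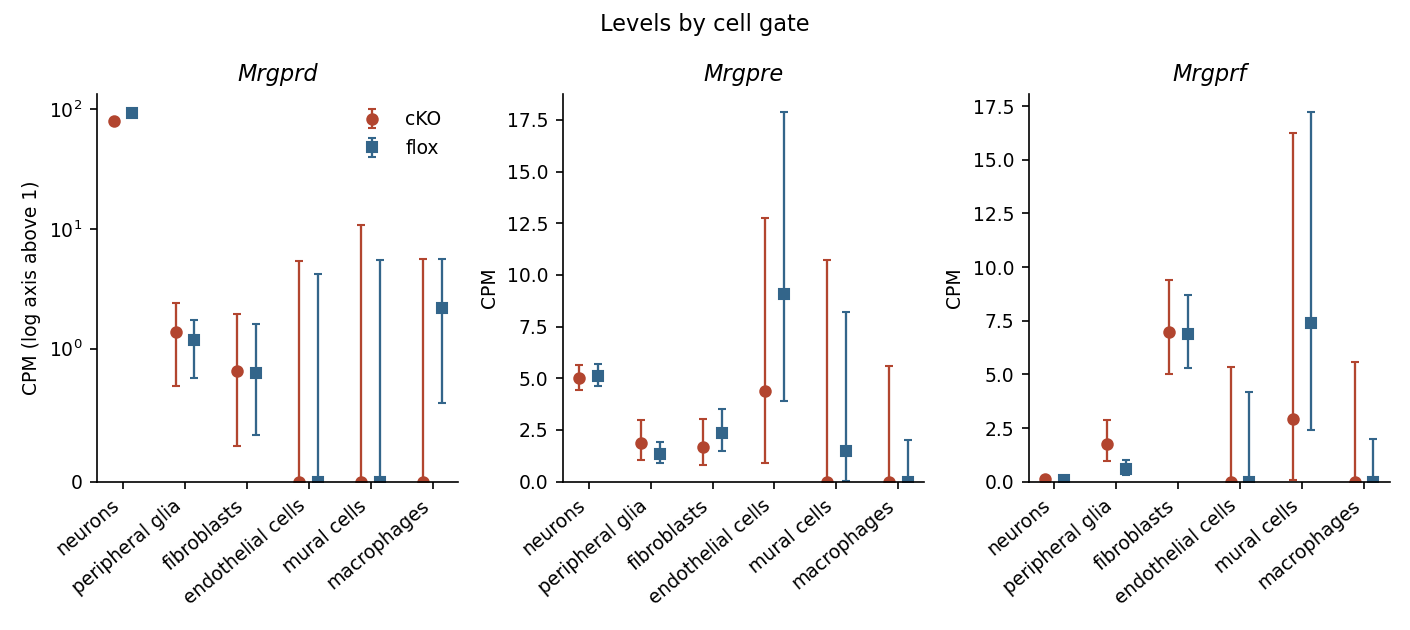
Level in CPM of Mrgprd (log axis above 1), Mrgpre and Mrgprf (linear axes) in 6 cell gates of the cKO (circles) and flox (squares) libraries, with bars for exact Poisson 95% intervals. Mrgprd is highest in neurons, whereas Mrgprf reaches 6.96 CPM in cKO and 6.86 CPM in flox fibroblasts and is near 0 in neurons. Mural cells have Mrgprf at 2.91 CPM in cKO and 7.38 CPM in flox, from few UMIs.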

How the data were processed

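Deposited matrices of UMI counts per gene and cell were used, with 9703 cKO and 10014 flox barcodes and 7.81e+07 and 1.33e+08 UMIs. The counts carry cellranger 6.1.2 per the file headers, whereas the submitters' processing notes name Cell Ranger 5.0.1, Scanpy and mm10. Whether the authors removed free RNA, counted introns or used strand is not given in those sources.

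Barcodes passed with 1000 UMIs or more, 500 genes or more and no more than 15% of UMIs from mitochondrial genes (8435 cKO, 8714 flox). Scrublet (scanpy 1.11.5) called 5 cKO and 0 flox doublets by its automatic threshold, so cells were removed from the top of the score, 0.8% for each 1000 cells, which took out 569 in cKO and 607 in flox. Mitochondrial, haemoglobin or other genes were not removed. UMIs were summed per library over gated cells, with exact Poisson (levels), Clopper-Pearson (shares) and conditional binomial (ratios) intervals at 95%, by scipy 1.17.1. A gene counted as measured with 50 UMIs over both libraries. Shares at equal depth are the mean over all random draws of 5000 UMIs (20000 as a setting added after seeing the data), from the hypergeometric distribution and rounded to whole neurons. Cell classes are gates on at least 3 markers of 1 class, not clusters.

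The genes named are the 7 receptors, family genes with 50 UMIs, the 5 genes most like a receptor (found in at least 20% of positive neurons, 0.1 points added to each share, 50 positive neurons in both libraries) and the 2 highest and 2 lowest genes of each list. Some genes and markers that these rules name are not reported here. The members, lists and rules were chosen with earlier results of these data known. On simulated counts of 15066 genes, the ratio intervals held the true value for 95.3% of genes, and 87.0% of 1.5-fold changes were found. Those counts were Poisson draws of library totals, the model behind the intervals, so spread between neurons or mice was not covered. Sequences came from RefSeq (GRCm38.p6) and positions from GENCODE vM21 (GRCm38, the assembly that mm10 names).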

Additional observations from a re-analysis of the deposited data

How the results depend on the processing

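Of the values recomputed, 199 stayed within 1.5 times the reported count or within the reported counting interval, and 27 moved. Some of the 199 could not move: the size rule of 1.0 and the other UMI minima do not enter the log2 ratios. The tally is therefore not a measure of how stable the results are. The count of lower receptors was 2 with every neuron set to 5000 UMIs, where Mrgprd reached -0.68 and 10.6% of all genes were lower. It was 0 with a size rule of 1.0, where 0.445% of all genes were lower. The count of higher receptors was 1 with the mean CPM of each neuron (Mrgprb4, 0.73, where 10.7% of all genes were higher and 14.7% lower). It was 1 of 6 with a minimum of 10 UMIs and 1 of 7 with no minimum, where 14.2% and 20.8% of all genes were higher. That receptor was Mrgprf at 0.89, with an interval of -0.98 to 2.89. Mrgpra3 was at -0.03 with the mean CPM of each neuron, and at -0.85 to -0.56 under the other settings, including TMM (-0.67) and DESeq2 size factors (-0.67). Mrgprd was at -0.82 with the mean CPM of each neuron. The cause of these moves was not tested.

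The share of neurons with any receptor differed by 5.0 points at 20000 UMIs and by 0.84 points for the same neurons read at 5000 UMIs, against -5.09 for all neurons at 5000 UMIs. The excess of Mrgprd in Mrgprx1-positive neurons was 7.66 points at 2000 UMIs, 24.9 at 10000 and 35.0 at 20000 in cKO, against 14.8 at 5000, and it was 34.0 at 20000 in flox, against 18.5 at 5000. The excess of Mrgprx1 in Mrgpra3-positive flox neurons was 19.4 points at 20000 and 5.26 at 5000. Neurons of Isl1, Pou4f1 or Avil, the depth of 20000 UMIs, its neurons read at 5000 UMIs and leaving out 10 neurons were added after seeing the data. No paired analysis was possible because each genotype was 1 library. Depth limits Mrgprb4, Mrgprb5 and Mrgprf in neurons.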
